A study of Mus musculus with 25 samples.

Results

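In the genome of mouse haematopoietic stem cells (HSCs), 188 of 100896 autosomal tiles of 1 kb carried less DNA methylation in old cells than in both fetal and young cells. A tile entered the comparison with at least 3 CpGs (a cytosine followed by a guanine) that had at least 5 reads in each of the 6 fetal, young and old libraries. It was kept where its level in both old libraries lay at least 10 percentage points below each of the 4 fetal and young libraries. The level is the percentage of reads that were methylated, summed over the CpGs of the tile. The tiles were thus chosen by their measured levels in the fetal, young and old libraries, whose values are given below as a description without a test. The other 19 libraries did not choose them.

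The study measured methylation by reduced representation bisulfite sequencing, which reads CpGs on CpG-rich restriction fragments, in HSCs during ontogeny and after a forced history of proliferation. All 25 libraries came from mice of the strain C57Bl/6. Fetal HSCs were from fetal liver at e14.5 (n = 2), young HSCs from bone marrow at 3.5 months (n = 2) and old HSCs from bone marrow at 25 months (n = 2). The 3 further bone marrow groups were 6 months past the age of 3.5 months and had received 0 (n = 3), 2 (n = 3) or 4 (n = 2) doses of 5-fluorouracil (5-FU), a drug that kills dividing cells and so drives resting HSCs into cycle. The remaining HSCs were taken from bone marrow after transplantation of 10 (n = 3), 50 (n = 1) or 500 (n = 1) young HSCs, or of 10 (n = 2), 50 (n = 1) or 500 (n = 3) old HSCs. The labels give neither the time after transplantation nor the recipients' age, and they do not say whether replicates came from separate animals, so the p-values measure the spread between libraries, which may be technical. Methylation data hold no expression of marker genes, so the identity of the cells could not be checked here.

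HSCs renew themselves and form all blood cells, and with age they tend to become more numerous while their output shifts towards myeloid cells. DNA methylation is copied after each division by a maintenance methyltransferase, and it is lost passively when copying is incomplete or actively through oxidation by TET enzymes. Methylated CpGs outside CpG islands are the usual state of mammalian DNA, and low or intermediate levels at sparse CpGs are often seen at enhancers.

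Libraries held between 22835325 and 105187091 reads, and the median depth of a CpG was 10 to 54 reads. Without molecular identifiers the reads are not independent molecules. The 0-dose libraries, which serve as the control below, stood apart from the rest: the most deeply read CpG had 63841 to 74120 reads there and at least 101345 in each other library, and the share of CpGs on the plus strand was 56.9% to 57.2% there and at least 57.7% in the others. The drug-treated libraries were of the same age and did not share these values. Whatever sets the 0-dose libraries apart cannot be told apart from their treatment.

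A lower level only in old HSCs was rarer than 4 of the other 5 patterns that the same rule can find. The 188 tiles were 0.186% of all tiles. By the same rule 1357 tiles (1.34%) were high only in old HSCs, 1697 (1.68%) low only in fetal, 1230 (1.22%) high only in fetal, 1622 (1.61%) low only in young and 48 (0.0476%) high only in young HSCs. With a margin of 20 points in place of 10, 49 of the 188 tiles were left, with 30 points 20 and with 40 points 11. The median margin, which is the lowest fetal or young level minus the higher old level, was 15.1 points and the largest was 55.3 points.

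The tiles were partly methylated before old age. Over the 188 tiles the median level was 79.1% and 77.3% in the fetal, 58.9% and 59.7% in the young and 29.2% and 31.4% in the old libraries. Over all tiles the medians of the same libraries were 84.8% in both fetal, 82.1% and 84.9% in the young, and 87.5% and 87.3% in the old libraries. In young HSCs 150 of the 188 tiles (79.8%) lay between 20% and 80%, where 17.5% of all tiles lay. The rule leaves out tiles with fetal or young levels near 0%, so this share is a description. In old HSCs 59 were under 20% and 129 between 20% and 80%. The tiles low only in old HSCs were thus not all unmethylated there, and the old level ranged from 0.463% to 78.2%.

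**Figure D1:**
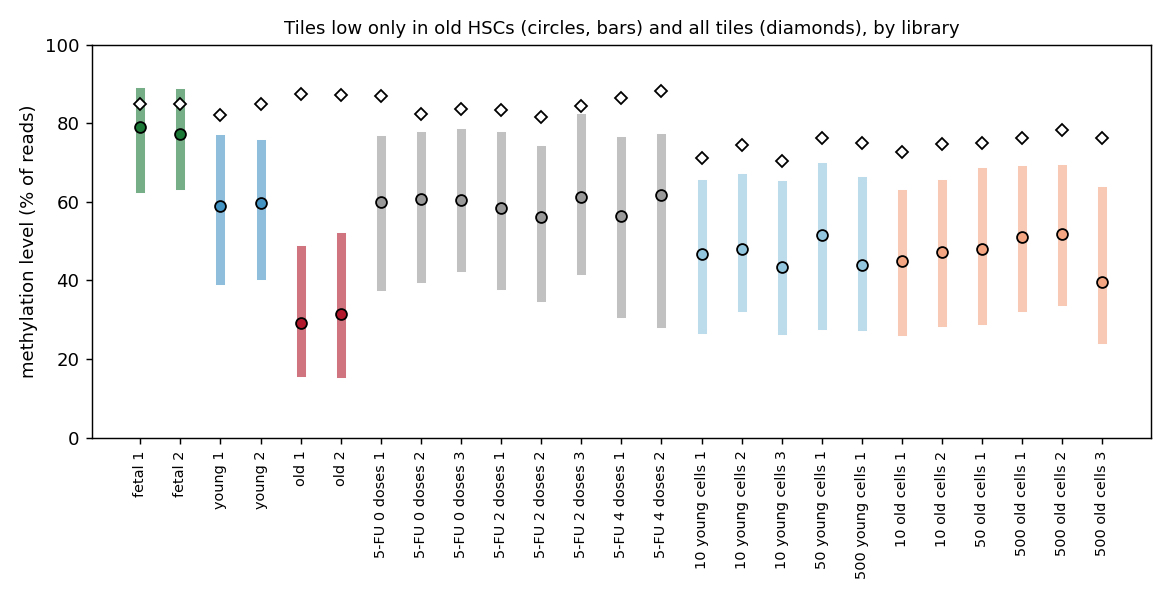
Methylation level (% of reads) of the tiles low only in old HSCs in each of the 25 libraries. Circles are medians and bars quartiles over the tiles covered in that library, and diamonds are medians over all tiles covered. The old libraries, which helped to choose the tiles, have medians of 29.2% and 31.4%. The 5-FU libraries lie at 56.1% to 61.8%, near the young libraries, and the transplanted libraries at 39.5% to 51.7%, between old and young.

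At many of these tiles the level was already lower in young than in fetal HSCs. Both young libraries lay below both fetal libraries in 129 of the 188 tiles (68.6%), and in 23.8% of all tiles. They lay at least 10 points below in 81 (43.1%), and in 4.08% of all tiles. At least 10 points above occurred once, and in 1.97% of all tiles. The order fetal, young, old thus described 129 tiles. Since the fetal and young levels both entered the rule, these shares are descriptions. In 83 tiles (44.1%) the fetal and young means lay within 10 points of each other, against 87.9% of all tiles. That the old levels of these 83 tiles were lower was set by the rule.

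The tiles held few covered CpGs and lay scattered over the autosomes. Their median number of covered CpGs was 4, against 5 in all tiles. Of the 188, 124 (66.0%) had 3 or 4 CpGs and 5 (2.66%) had 10 or more, where 48.3% and 23.8% of all tiles did. None held 30 or more CpGs, where 5.87% of all tiles did. Whether tiles with fewer CpGs passed the rule more easily was not tested. They lay on all 19 autosomes, with 5 to 17 tiles each. No pair of them started within 2 kb of each other, 6 neighbouring pairs lay within 100 kb, and the median distance to the next one was 6626 kb. Distances in other sets of 188 tiles were not computed, so those given here are a description. A directly neighbouring tile was covered at 39 (20.7%), against 36.8% of all tiles, and 12 (6.38%) lay within 5 kb of a tile with 30 or more CpGs, against 13.1%.

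In the covered tiles beside these tiles the median of old minus young was not negative. A directly neighbouring tile was covered at only 39 of the 188. Over the 188 tiles old minus young had a median of -22.5 points, a direction set by the rule, which did not choose the tiles beside them. In the 42 covered tiles at a distance of 1 kb the median was 0.703 points, at 2 to 3 kb 1.81 points (60 tiles) and at 7 to 10 kb 1.12 points (146 tiles), where all tiles had 1.54 points. Within the tiles the lower level was shared by most CpGs. Of their 810 CpGs, 574 (70.9%) were lower in both old libraries than in all fetal and young libraries, and 405 (50%) were lower by at least 10 points. Of all 906240 CpGs, 2.09% and 0.168% were. The level that chose a tile was summed over these same CpGs in the same 6 libraries, so these shares are descriptions. All CpGs were lower in 75 of the tiles, and all were lower by at least 10 points in 31.

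**Figure D2:**
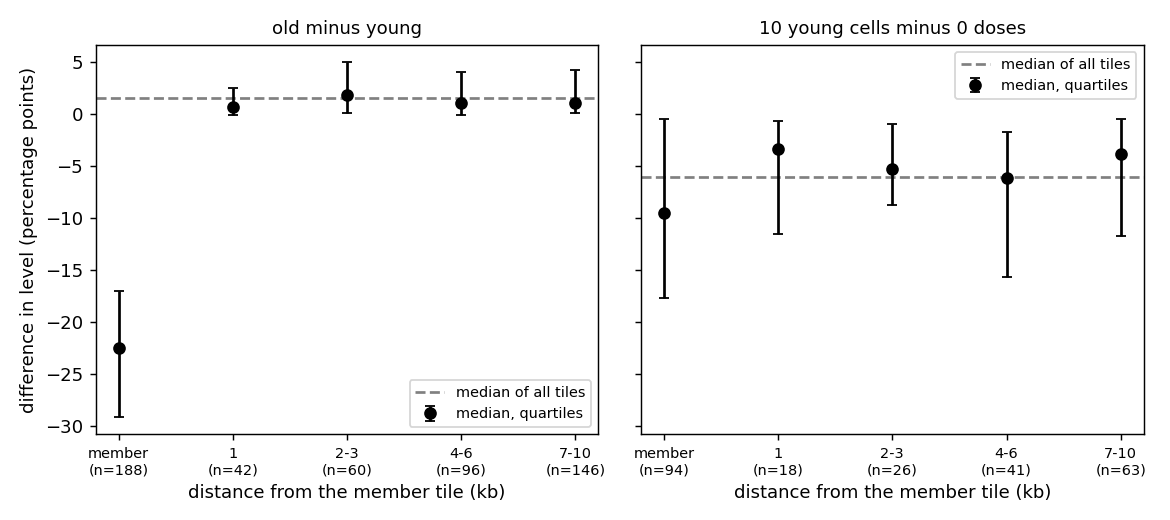
Difference in methylation level (percentage points) in the tiles low only in old HSCs and in covered tiles at increasing distance (kb). Points are medians, bars quartiles, n the number of tiles, and the dashed line the median of all tiles. Old minus young, on the left, is the difference that chose the tiles, at -22.5 points, and it is 0.703 points in tiles 1 kb away. On the right, 10 young cells transplanted minus 0 doses of 5-FU had a median of -9.46 points in the tiles and -6.00 points in all tiles.

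In the thinnest of the 6 libraries the tiles had a median of 98 reads, the lowest had 17, and 160 tiles had at least 50 reads in every library. The depth in old libraries was 1.00 times that in the fetal and young libraries at the median over these tiles, and 0.744 times over all tiles. Depth therefore moved with the choice, and its part in the result was not tested.

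The 10 tiles with the largest margins, among those with at least 50 reads in each of the 6 libraries, show these patterns one by one. Coordinates are on the mouse build mm9. No annotation of that build was used here, so the genes at these positions are not given. In the transplanted and 5-FU libraries a tile counts as covered, and its value is given, where every CpG that chose it had at least 5 reads, so that levels are over the same CpGs in each library.

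The largest margin, 55.3 points, was at chromosome 2, 33616001 to 33617000, over 4 CpGs. Its level was 73.5% and 94.5% in the fetal, 69.0% and 68.6% in the young and 7.21% and 13.3% in the old libraries, over 128 to 416 reads. It was 80% and 87.5% in the 0-dose libraries covered, and 89.1%, 76.4% and 49.0% with 2 doses. After 10 old cells it was 66.8% and 60.9%, after 50 old cells 58.2%, and after 500 old cells 50.0%, 57.2% and 19.4%. All 6 libraries from transplanted old cells thus lay above both old libraries, and 1 of them lay far below the others. After young cells it ranged from 41.1% to 76.6% over the 4 libraries covered. Each of the 4 CpGs read 6.25% to 20% in the old libraries.

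Next was chromosome 12, 104452001 to 104453000, over 3 CpGs, with 95.1% and 92.9% in the fetal, 65.9% and 62.7% in the young and 9.05% and 15.1% in the old libraries. After 10 young cells it was 45.8%, 36.2% and 33.8%, and after 10 old cells 19.7% and 35.1%. The 11 transplanted libraries ranged from 19.7% to 52.3%, all above old and all below young. The CpGs of this tile differed among themselves: in the first library after 10 young cells they read 5%, 15% and 90.6%.

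At chromosome 18, 78330001 to 78331000, the level over 4 CpGs was 93.0% and 93.2% in the fetal, 55.2% and 52.6% in the young and 8.28% and 7.71% in the old libraries. The transplanted libraries ranged from 34.3% to 64.1%, with a median of 46.3%, around and below the young level. In young HSCs the pair of CpGs at 78330376 and 78330383 read 20% to 42.9%, and the pair at 78330560 and 78330602 read 70.8% to 82.1%. The intermediate young level of the tile was thus a mean of a lower and a higher pair.

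A different course was seen at chromosome 9, 119469001 to 119470000, over 6 CpGs, with 63.6% and 75.5% in the fetal, 61.7% and 59.9% in the young and 16.5% and 13.1% in the old libraries. With 2 doses of 5-FU it read 37.9% and 41.2% in the libraries covered, below young, and the covered 4-dose library read 59.9%, near young. After transplantation it ranged from 11.97% to 38.9% over 11 libraries, with a median of 30.8%, below every young library.

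Next to these stood tiles that kept a high level outside the old libraries. At chromosome 17, 74202001 to 74203000, fetal HSCs had 76.8% and 86.0%, young 85% and 80%, and old 27.7% and 34.1%. The 7 covered 5-FU libraries had 63.3% to 85.4%, the 5 libraries from young cells 76.5% to 87.6%, and the 6 from old cells 63.8% to 83.2%. All libraries covered other than the old ones were thus at 63.3% or more. At chromosome 1, 38474001 to 38475000, old HSCs had 28.9% and 36.2%. Every other library there lay between 57.8% and 100%, including 70.4% to 81.7% after transplantation of old cells.

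At chromosome 8, 122902001 to 122903000, the level was 86.4% and 87.6% in the fetal, 65.1% and 71.1% in the young and 23.3% and 17.2% in the old libraries. Its 0-dose libraries read 46.9% to 64.8%, and its transplanted libraries 22.9% to 56.7%. At chromosome 16, 28596001 to 28597000, with 8 CpGs, fetal HSCs had 87.2% and 89.3%, young 51.6% and 60.4%, and old 9.76% and 9.91%. Its level was 53.8%, 46.0% and 63.8% with 0 doses, 37.0%, 23.0% and 39.8% with 2 doses, and 11.99%, 16.6% and 10.7% after 10 young cells. All 3 libraries with 2 doses lay below all 3 with 0 doses here. On chromosome 6, the tile 31157001 to 31158000 had a mean of 41.1% ± 1.22 (SD, n = 2) in old and 86.5% ± 4.13 in young HSCs, and a median of 60.4% over the 11 transplanted libraries. On chromosome 11, the tile 119072001 to 119073000 had 32.3% ± 2.73 and 77.6% ± 2.41, and a transplanted median of 47.4%.

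**Figure D3:**
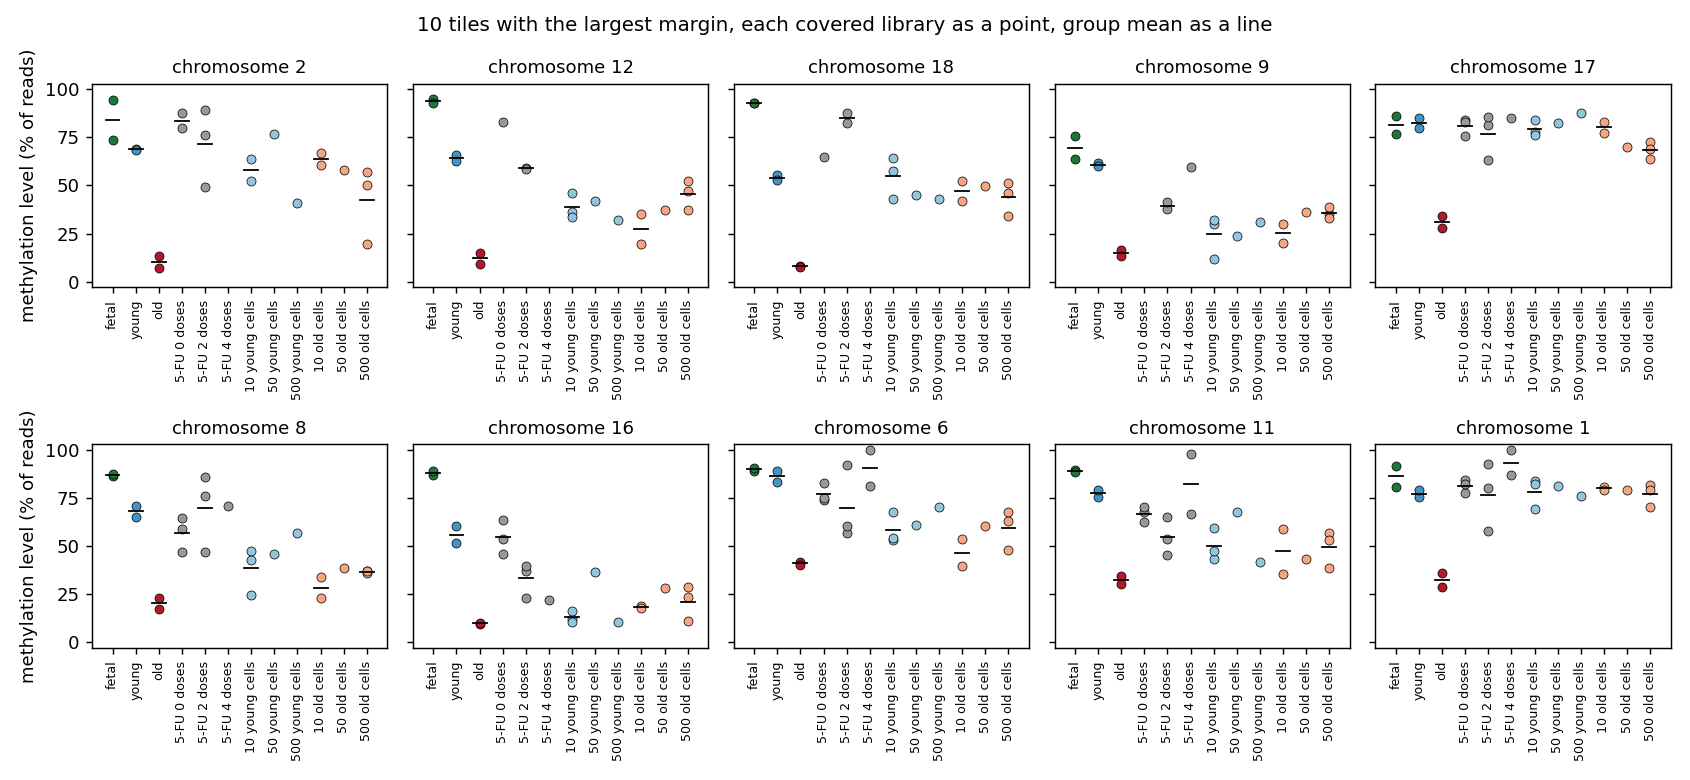
Methylation level (% of reads) of the 10 tiles with the largest margins, 1 panel per tile in the order of the margin. Points are libraries in which the tile was covered, and lines are means of groups of 2 or more. At chromosomes 17 and 1 the old libraries stand alone below the rest. At chromosomes 9 and 16 the transplanted libraries (11.97% to 38.9% and 10.6% to 36.5%) lie below every young library, and some of them near the old ones.

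At the edge of the rule, the members nearest to the margin were chromosome 13, 41044001 to 41045000 (10.295 points; 21.4% ± 2.75 in old, 39.9% ± 8.89 in young), and chromosome 5, 65095001 to 65096000 (10.302 points; 26.1% ± 5.42 and 40.9% ± 1.05). Just outside were chromosome 7, 75116001 to 75117000 (9.97 points; 53.3% and 68.6% in old, 79.0% and 78.6% in young), and chromosome 11, 105265001 to 105266000 (9.96 points; 10.5% and 21.0%, and 31.0% and 40.9%).

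The 5-FU groups asked whether drug-driven cycling of HSCs moves these tiles. Without drug the median over tiles was 60.0%, 60.8% and 60.5% in the 0-dose libraries, near the young medians. The group mean minus the young mean had a median of -0.0152 points over the 99 tiles covered in all 3. The young libraries helped to choose the tiles, so this difference is a description without a test. The same holds for the counts below against the fetal, young and old levels. Of these 99 tiles, 60 had a 0-dose mean at or above the lowest fetal or young level, 36 lay between that and the higher old level, and 3 were at or below the old level. With 2 doses the library medians were 58.4%, 56.1% and 61.2%, and with 4 doses 56.4% and 61.8%. With 2 doses 6 of 136 tiles and with 4 doses 6 of 65 had a group mean at or below the higher old level. In no tile of the 44 covered in all 8 of these libraries did every library lie at or below the old level, and in 5 every library lay at or above the lowest fetal or young level.

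For tests, all tiles with at least 3 CpGs of at least 5 reads in each of the 19 libraries were fitted together, which left 54230 tiles and 78 of the 188. The CpGs of a tile in this fit can be fewer than those that chose it. A tile counted as changed at a Benjamini-Hochberg adjusted p under 0.05, over all tiles, in a quasi-binomial model moderated with limma, and a difference of at least 10 points. None of the 78 tiles changed with 2 against 0 doses, where 0.0553% of all tiles did, nor with 4 doses, where 0.0129% did. At an unadjusted p under 0.05, 8 and 20 of the 78 passed, which is 10.3% and 25.6%, against 5.89% and 9.86% of all tiles. With limma on log ratios 2 of the 78 changed with 2 doses and 8 with 4 doses, where 482 (0.889%) and 1353 (2.49%) of all tiles did. The median difference of the 78 tiles was -1.69 points with 2 doses and 1.43 points with 4 doses, against -0.518 and -0.0980 points over all tiles. The quartiles with 4 doses were -7.71 and 11.2 points, so that the tiles spread in both directions. All 2-dose libraries lay below all 0-dose libraries in 5 of the 78 tiles and above in 7, where 14.7% and 4.65% of all tiles did. With 4 doses the counts were 11 and 15, against 18.2% and 15.2% of all tiles. The median with 4 doses was -3.43 points without the second 4-dose library, and without the first of them 2 of 84 tiles changed, where 283 (0.502%) of all tiles did. Both comparisons share the 0-dose libraries.

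After transplantation the tiles read between old and young HSCs, from either donor age. The median over the tiles was 46.8%, 48.1% and 43.3% in the libraries from 10 young cells, 51.5% from 50 and 43.9% from 500 young cells. It was 44.9% and 47.3% from 10 old cells, 48.0% from 50, and 51.1%, 51.7% and 39.5% from 500 old cells. The libraries from young and old donors overlapped. They lay below every young, 0-dose, 2-dose and 4-dose library and above both old libraries. The last library from 500 old cells was the lowest of the 11. These medians rest on different numbers of covered tiles, from 80 to 188. Over the 42 tiles covered in all 25 libraries the medians were 25.7% and 27.4% in old, 51.2% and 50.5% in young, 45.7% to 62.2% in the 5-FU libraries and 30.7% to 49.3% in the transplanted ones. There the library from 50 young cells, at 49.3%, overlapped the 5-FU libraries, and the others lay below them. Over all tiles the transplanted libraries had medians of 70.3% to 78.3%, below the 81.5% to 88.2% of all other libraries, so that a lower level than in untransplanted cells was not particular to these tiles.

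The tiles did not behave as one group after transplantation. After 10 young cells, 50 of 177 covered tiles had a group mean at or below the higher old level, 81 lay between, and 46 were at or above the lowest fetal or young level. After 10 old cells the counts were 45, 83 and 48 of 176, and after 500 old cells 32, 102 and 42 of 176. Every one of the 11 transplanted libraries lay at or below the higher old level in 10 of the 153 tiles covered in all of them. Every one lay at or above the lowest fetal or young level in 10 others. Both old libraries chose these tiles for a low level, so a level above them after transplantation of old cells is a description without a test. The fetal and young libraries chose the tiles for a higher level. Levels below young after transplantation, and the counts against these bounds, are therefore descriptions too. No further untransplanted old library was included, so the old level itself could not be followed in a library that did not choose the tiles.

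Of the 10 tiles that were low in all transplanted libraries, chromosome 4, 86358001 to 86359000, had 91.8% ± 3.26 (SD, n = 2) in fetal HSCs, a young mean of 67.6% ± 1.55 and an old mean of 29.2% ± 9.96. It ranged from 6.77% to 24.9% after transplantation, with a median of 15.3%. At chromosome 5, 53112001 to 53113000, the means were 86.5% ± 4.04, 48.7% ± 4.25 and 24.6% ± 0.596, and the transplanted libraries had 2.03% to 16.7%. At chromosome 9, 44500001 to 44501000, they were 67.2% ± 1.53, 41.1% ± 6.14 and 15.3% ± 2.59, and the transplanted libraries had 7.41% to 16.1%. These tiles were picked for a low level in every transplanted library, so a low level from both donor ages was set by the pick.

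Of the 10 that were high in all of them, chromosome 14, 64632001 to 64633000, had a fetal mean of 94.9% ± 2.28, a young mean of 33.7% ± 3.08 and an old mean of 13.1% ± 4.82, and 34.6% to 97.4% after transplantation, with a median of 81.7%. At chromosome 4, 153960001 to 153961000, the means were 73.6% ± 6.03, 39.5% ± 1.45 and 24.0% ± 3.40, and the transplanted libraries had 45.7% to 81.3%. At chromosome 1, 36312001 to 36313000, fetal and young HSCs had 32.6% ± 2.28 and 35.6% ± 8.96, old HSCs had 12.4% ± 1.65, and the transplanted libraries had 42.7% to 63.2%. These 20 tiles were found by their values in the transplanted libraries. Those named are examples picked after the values were seen.

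Set against the 0-dose group, which did not choose the tiles, 6 of the 78 tiles were lower after 10 young cells and none was higher, where 1.49% of all tiles were lower and 0.0793% higher. The median difference over the 78 tiles was -11.3 points (quartiles -18.5 and -3.13), against -2.49 points over all tiles. Over the CpGs that chose the tiles, in tiles covered in both groups, the difference of means had a median of -9.46 points in 94 tiles and -6.00 points in all 42601 tiles, so that the distance to the background was smaller. All 3 libraries lay below all 3 of the 0-dose group in 30 of the 78 tiles (38.5%), against 34.1% of all tiles, a share near the background, and above in 3, against 3.28%. The count of 6 was 0 without the first 0-dose library or without the third library from 10 young cells, 1 without the third 0-dose library or the first from 10 young cells, 3 without either remaining one, 2 with at least 10 reads per CpG, and 15 of 131 in a fit of only those groups. Lower tiles among all tiles moved likewise, from 806 to 36 without the first 0-dose library, 44 without the third library from 10 young cells, 60 and 77 where the count was 1, 271 and 282 where it was 3, 129 with at least 10 reads and 1336 of 80420 in the fit of only those groups. The median difference kept its sign in all of these settings.

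The 3 largest of these differences are given in full. At chromosome 1, 72646001 to 72647000, over 3 CpGs covered in all 19 libraries, the level was 60.5%, 66.3% and 81.3% with 0 doses, and 8.05%, 22.3% and 2.53% after 10 young cells. The groups did not overlap, and the fitted difference was -58.5 points (quasi-binomial model with limma, adjusted p = 0.0428). After 10 old cells it read 26.8% and 61.4%, and with 4 doses 75% and 8.70%, so these groups were wide. Young HSCs had 31.4% ± 2.38 and fetal HSCs 96.4% ± 1.89 over the 6 CpGs that chose the tile, a set that was not covered in all 0-dose libraries, so these levels and those above cannot be compared.

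At chromosome 16, 36990001 to 36991000, over 7 CpGs, the level was 73.9%, 65.1% and 65.3% with 0 doses, 37.4%, 34.7% and 28.8% after 10 young cells, and 31.7% and 27.3% after 10 old cells. The difference was -34.5 points for young (adjusted p = 0.0118) and -38.4 points for old cells (adjusted p = 0.0460). All 11 transplanted libraries, at 27.3% to 49.2%, lay below the 8 libraries of the 5-FU groups, at 53.5% to 75.5%. At chromosome 16, 28596001 to 28597000, which is also the seventh by margin, the level over the 5 CpGs shared by the 19 libraries was 46.9%, 42.2% and 44.7% with 0 doses, and 12.4%, 13.6% and 8.23% after 10 young cells, a difference of -33.4 points (adjusted p = 0.0294). With 2 doses it was 37.5%, 15.2% and 23.3%, also below every 0-dose library, and with 4 doses 23.7% and 60.4%, on either side of the 0-dose libraries. After 10 young cells the calls at chromosome 1 and at chromosome 16, 28596001, were lost whenever any 1 library of either group was left out. Both were also lost with at least 10 reads per CpG and with the replicate number as a block. The call at chromosome 16, 36990001, after 10 young cells was lost without the first 0-dose library or without the third library from 10 young cells.

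The other 3 changed tiles lay at chromosome 5, 25343001 to 25344000, with 42.4% ± 12.4 (SD, n = 3) at 0 doses and 9.88% ± 3.56 after 10 young cells, at chromosome 11, 103248001 to 103249000, with 89.3% ± 3.04 and 63.0% ± 2.09, and at chromosome 11, 24290001 to 24291000, with 21.7% ± 7.03 and 4.28% ± 2.16. In the second of these, fetal HSCs had 77.4% ± 4.91, young 87.4% ± 0.117 and old 50.5% ± 9.36, and the transplanted libraries ranged from 61.5% to 74.2%, above both old and below both young libraries. In the third, all 11 transplanted libraries were at or below the higher old level. They are named here because the count is small, and were chosen after their values were seen.

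**Figure D4:**
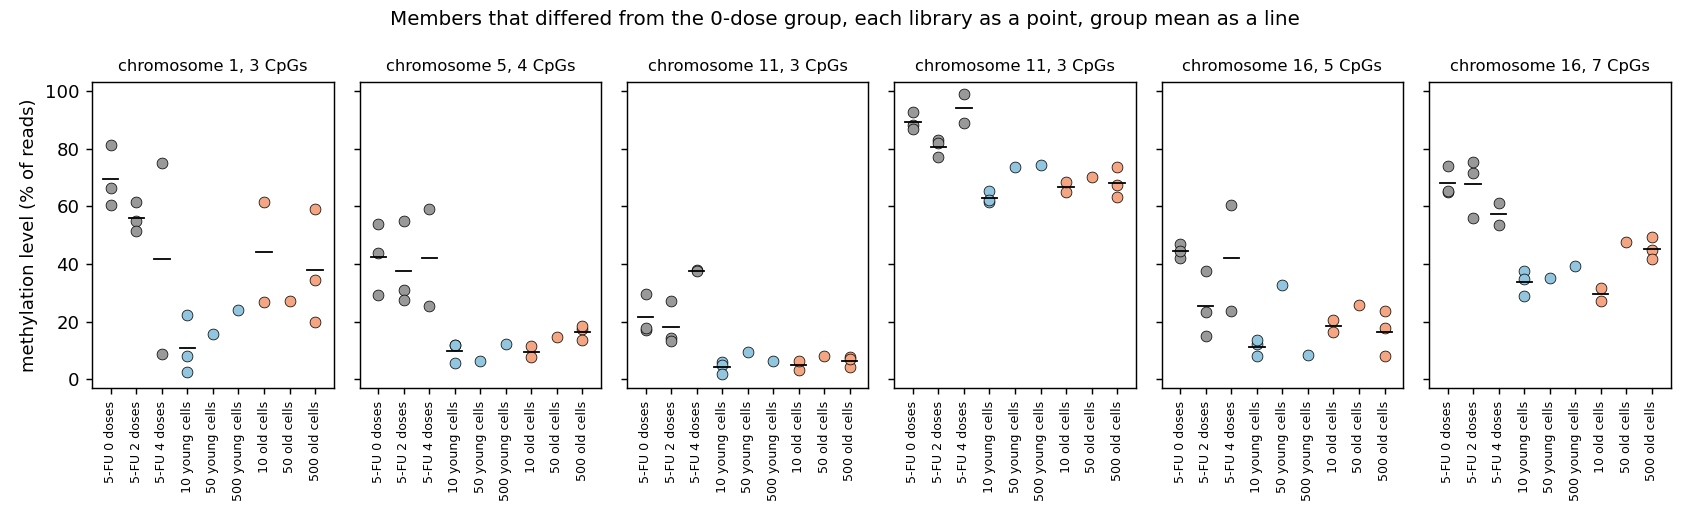
Methylation level (% of reads) of the 6 tiles that were lower after 10 young cells than with 0 doses of 5-FU, over the CpGs covered in all 19 libraries. Points are libraries and lines are means of groups of 2 or more. In each panel the 3 libraries from 10 young cells lie below the 3 of the 0-dose group, and in the last panel, chromosome 16 with 7 CpGs, all transplanted libraries (27.3% to 49.2%) lie below all 5-FU libraries.

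Old cells after transplantation gave similar values against the 0-dose group. With 10 old cells 1 of the 78 tiles was lower, that at chromosome 16, 36990001, where 0.0277% of all tiles were lower, and none was higher, against 0.00184%. The median difference was -10.1 points, against -2.37 points over all tiles, and over the CpGs that chose the tiles it was -9.96 points, against -6.08 points over 43930 tiles. In 35 tiles (44.9%) both libraries lay below all 0-dose libraries, against 42.2% of all tiles, and in 4 above, against 5.27%. The call at chromosome 16, 36990001, was lost whenever a 0-dose library was left out. Calls over all tiles then fell likewise, from 16 to 3, 3 and 2 without 0-dose replicates 1, 2 and 3. Without replicate 1 or replicate 2 from 10 old cells, the difference at this tile was -40.8 or -36.4 points. With 500 old cells none of the 78 changed, where 0.059% of all tiles were lower and 0.00738% higher, while 24 of the 78 (30.8%) passed an unadjusted p of 0.05, against 10.0% of all tiles, and 7 changed with limma on log ratios, where 945 (1.74%) of all tiles did. The median difference was -9.36 points, against -1.07 points over all tiles, and 32 tiles (41.0%) had all libraries below, against 25.5%, and 3 had all above, against 5.22%. These comparisons share the 0-dose libraries with those above.

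The background was also taken over tiles of like makeup. Among tiles with fewer than 10 CpGs that read 40% to 70% in each 2-dose library, a class set after seeing the data, the median differences were -9.26, -7.90 and -6.38 points after 10 young, 10 old and 500 old cells (1217 tiles). The 11 tiles low only in old HSCs in that class had -13.2, -11.2 and -10.8 points, so that the distance to the background was smaller than over all tiles.

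**Figure D5:**
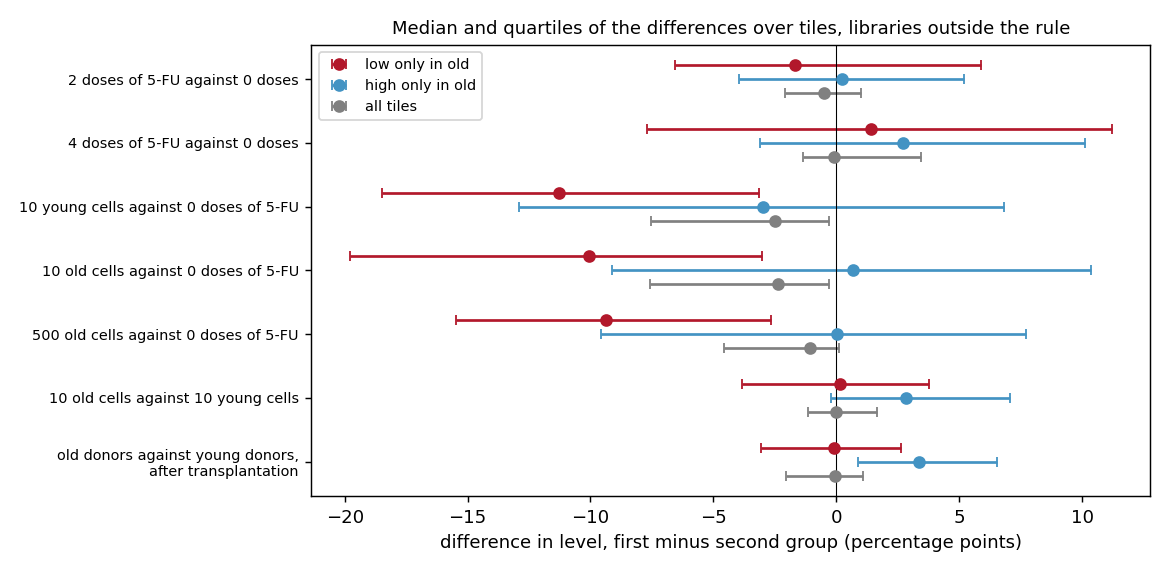
Differences in methylation level (percentage points, first minus second group) in the libraries that did not choose the tiles. Points are medians and bars quartiles over the 78 tiles low only in old HSCs (168 for old against young donors), the tiles high only in old HSCs and all tiles tested. The tiles low only in old HSCs have medians of -11.3, -10.1 and -9.36 points for the 3 transplanted groups against 0 doses, and medians near 0 between donor ages.

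The transplanted cells also asked whether a low level in old donors is still seen after transplantation. Between 10 old and 10 young cells none of the 78 tiles changed, and none of all 54230 tiles did, with the quasi-binomial model or with limma on log ratios. At an unadjusted p of 0.05 in the former, 4 and 604 of them passed. The median difference of old minus young donors was 0.159 points, with 39 tiles higher and 39 lower, against 0.00521 points over all tiles. Both libraries from old cells lay below all from young cells in 9 tiles and above in 7, against 8.47% and 9.07% of all tiles. Over all 11 transplanted libraries, with the log10 number of cells as a covariate, 168 of the 188 tiles were among 93599 tested. None of all these tiles changed with donor age under the quasi-binomial model or limma on log ratios, and 8 of the 168 and 3713 of all tiles passed an unadjusted p of 0.05. The median difference was -0.0907 points, with quartiles of -3.08 and 2.62 points, and 83 tiles were higher and 85 lower with old donors. Leaving out 1 library at a time moved the median between -0.765 and 0.523 points, to either side of 0. A p that misses the threshold does not show that the donors were alike.

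No tile of the 168 had all 6 libraries from old donors below all 5 from young donors, and 2 had all of them above, where 0.0876% and 0.284% of all tiles did. These 2 were named after their values were seen. At chromosome 6, 30177001 to 30178000, old HSCs had 48.9% ± 9.92 and young 68.9% ± 1.06, but the libraries from old donors read 46.9% to 55.6% and those from young donors 33.0% to 44.7% (unadjusted p = 0.00468, adjusted p = 1 in the quasi-binomial model moderated with limma). At chromosome 10, 80116001 to 80117000, they read 61.4% to 65.1% and 43.9% to 60.8%. The order of the donors was thus opposite to that of old and young HSCs.

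The tiles high only in old HSCs gave other values in the same fit. Their median difference between donor ages was 3.38 points, and 851 of 1055 were higher with old donors, the direction in which old HSCs differed. The tiles high only in fetal HSCs, which the rule did not choose by a difference between old and young, had 742 of 1118 higher and a median of 1.52 points, and all tiles had 43897 higher and 49490 lower. In the tiles low only in old HSCs 85 of 168 had the direction of old HSCs. A test of the difference between these lists was not made.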

How the data were processed

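DNA methylation was measured by reduced representation bisulfite sequencing in 25 libraries. The deposited files give the methylated and total reads of each CpG, as the authors counted them, on build mm9 (per the submitters' processing notes). The deposited score is the scaled methylated fraction rounded down in 100% of lines and was not used. Aligner, caller and duplicate handling: not given in the sources used here.

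Methylated and total read counts, as deposited, were summed in autosomal 1000-bp tiles holding 3 or more CpGs that passed 5 reads in all libraries fitted. Each tile was fitted with a quasi-binomial model with a mean per group and Williams' weights, whose correlation within a library was set so that the median dispersion matched its expectation (0.0139 for 19 libraries, 0.00955 for 11). The dispersion was moderated with limma's squeezeVar and held at 1 or more; p-values of F tests were adjusted over all tiles (Benjamini-Hochberg). A tile was called at an adjusted p under 0.05 and at least 10 points. Levels outside the tests are over the CpGs that chose a tile, in libraries where all of them had at least 5 reads. Donor age was fitted on the 11 transplanted libraries. The fit was tested on simulated reads.

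Alternatives were at least 10 reads per CpG, CpGs over 500 reads left out, limma on log2 ratios of methylated to unmethylated reads, the replicate number as a block, only the groups compared, 20 points and leaving out each library. Tiles named were the 10 largest margins with at least 50 reads in each of the 6 libraries that chose them, those at the margin, and up to 3 called per comparison and direction whose groups did not overlap; others are marked as chosen later. The tiles and lists were chosen with earlier results of these data known. Lists of genes were not counted, since no annotation of mm9 was used here. Tools were Python 3.11.15, numpy 2.4.6, scipy 1.17.1, pandas 2.3.3, matplotlib 3.10.9, R 4.3.3 and limma 3.58.1.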

Additional observations from a re-analysis of the deposited data

How the results depend on the processing

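A stricter margin or CpG number can only lose tiles, and leaving out a library drops a condition of the rule. The direction in which the number of tiles low only in old HSCs moved was thus largely set in advance. That number was 64 with at least 5 CpGs per tile and 49 with a margin of 20 points. It ranged from 222 to 431 when 1 of the 6 libraries was left out, with 431 without old replicate 1, 371 without old replicate 2 and 307 without young replicate 1. Of the members called, 10 young cells against 0 doses gave 2 with at least 10 reads per CpG, 15 when only the groups compared were fitted, and 0 to 3 when a library was left out. Limma called 8 members in that comparison, and over all tiles the count of 849 was 2681 with limma. For 10 old cells the count of 1 was 0 with at least 10 reads per CpG and with CpGs over 500 reads left out. It was 0 with only its own groups fitted, 3 with limma, and 0 without any 1 of the 0-dose libraries. Over all tiles the count for 10 old cells was 16. This was 3 with at least 10 reads per CpG, 8 with CpGs over 500 reads left out and 0 with only its own groups. Without 0-dose replicates 1, 2 and 3 it was 3, 3 and 2. Limma called 557 (1.03%) of all tiles for 10 old cells, and of its 3 members 2 were lower and 1 higher. Limma called 2 members with 2 doses of 5-FU, 8 with 4 doses and 7 with 500 old cells, and 482, 1353 and 945 of all 54230 tiles. With 4 doses the count was 0 to 2 and the median difference -3.43 to 5.45 points when a library was left out. Where 1 library was left in a group, it was taken to vary like the other groups. The replicate numbers did not pair the libraries: same-numbered libraries had correlations of deviations of -0.0814 to 0.121 and others -0.121 to 0.104. With the replicate block, 1 member was called for 10 young cells and 0 for 10 old cells, and 104 and 2 of all tiles. Of the values that answer a comparison, 150 stayed within 1.5 times (counts) or the spread between libraries (medians) and 29 did not. The 150 include counts of 0 that stayed 0 and 14 medians that changed sign. Every count for 10 young cells with a library left out was among the 29. Of the values of single tiles, 40 were the same and 27 no longer passed. No called difference reversed; the medians between donor ages lay near 0 and changed sign with the setting, 7 times over all transplanted libraries and 6 times for 10 old against 10 young cells, the latter from -1.80 to 2.03 points when a library was left out. The median with 4 doses also changed sign, to -0.914 points, with at least 10 reads per CpG. Tests covered the 78 members with 3 CpGs of 5 reads in all 19 libraries, and what depth limits is mainly the 0-dose and 4-dose groups, where the 188 tiles were covered in as few as 80.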
